A study of Sorghum bicolor with 12 samples.

Results

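This account covers the calcium sensors and calcium-dependent kinases of sorghum leaves, which were the genes whose deposited product description names a calcineurin B-like (CBL) protein, a CBL-interacting protein kinase (CIPK), a calcium-dependent protein kinase (CDPK), a calmodulin-like protein or a CML calcium-binding protein (both counted as CML). The rule found 116 genes among the 33897 of the count table: 8 CBL, 31 CIPK, 30 CDPK and 47 CML genes. Leaf RNA was sequenced from 2 cultivars of Sorghum bicolor, Jinliang 5 (JL) and Sanchisan (SCS), each under drought and under a normal water supply (control). The 4 groups, JL drought, JL control, SCS drought and SCS control, hold 3 libraries each. The labels do not state how long or severe the drought was, how old the plants were, or whether the 3 libraries of a group stand for different plants. The p-values therefore cover only the spread between these libraries, which may be technical.

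Drought, salt and cold open calcium channels in plant cells, and the calcium that enters is read by proteins with EF-hands, loops that bind the ion. CBL and CML proteins are sensors with no enzyme activity of their own. A CBL protein acts by docking a CIPK through that kinase's NAF motif and carrying it to a membrane, where the pair phosphorylates channels and transporters, as in the SOS pathway of salt tolerance of Arabidopsis. CDPKs carry the kinase and the EF-hands in the same protein and need no partner to sense calcium. In leaves both kinds of kinase are known for regulating the ion channels of guard cells and the NADPH oxidases, and so stomatal closure.

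The deposited domain annotation fitted the names of most genes. Both a kinase domain and the NAF domain were listed for 28 of 31 CIPK genes, both a kinase domain and EF-hands for 25 of 30 CDPK genes, and EF-hands for 7 of 8 CBL and 42 of 47 CML genes. Chromosome 3 carries 22 of the 116 genes, more than any other, and some are neighbours. CIPK16 (LOC8060254) and CIPK27 (LOC8060255) lie next to each other on opposite strands of chromosome 2, 21069 bases apart, and both are 2016 bases long. Names and numbers follow the deposited descriptions, so a number shared with an Arabidopsis or rice gene does not by itself make the genes equivalent. The sources used here do not say how reads shared by similar copies were counted, so the value of any 1 member is uncertain where copies are alike.

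Library totals ran from 15039990 to 18356604 counts. Of the 116 genes, 85 had enough counts to be tested (8 CBL, 24 CIPK, 21 CDPK and 32 CML), which is 73.3%, against 20873 of 33897 genes in the whole table. Of the other 31 genes, 11 had no count in any library and 20 had at most 178 counts over the 12 libraries. A gene with no count could hold up to 3 counts over all 12 libraries together, or 0.0154 CPM, a limit that covers counting error only. The genes with no count were CIPK25, 2 CDPK genes and 8 CML genes, 4 of them described as CML23. Among the cell type markers, genes of mesophyll cells (9 genes, among them phosphoenolpyruvate carboxylase, the entry enzyme of C4 photosynthesis) were present in every library. Their summed level was 94090 to 115900 TMM-scaled CPM in JL drought and 90680 to 131300 in JL control, against 4299 to 13140 in SCS drought and 31770 to 71170 in SCS control. Of 38 seed genes 25 had no count anywhere, and pollen genes summed to at most 7.004 CPM in any library. In such bulk samples, fewer cells of a type and less RNA per cell cannot be told apart.

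Per length of gene, the most abundant members were kinases that need a partner. The mean of the 12 libraries in deposited FPKM, fragments scaled by gene length and library size, was 288 for CIPK1 (LOC8060301), 223 for CIPK21 (LOC8063532) and 183 for CIPK2 (LOC110432514). In Arabidopsis, CIPK1 is known as a partner of CBL1 and CBL9 in responses to osmotic stress. The most abundant sensors were CBL2 (LOC8076631; 49.4 FPKM), CBL6 (LOC8073480; 29.9) and CBL10 (LOC110433675; 27), and among CML genes CML27 (LOC110429587; 63.8), CML10 (LOC8062320; 56.3) and CML16 (LOC8061350; 44). No CDPK gene passed 39.3 FPKM. That value belongs to CDPK28 (LOC8076280), ahead of CDPK17 (LOC8068369; 34.5) and CDPK13 (LOC8060443; 33.4). The median over all genes of a family, untested genes included, was 12.14 FPKM for CBL, 12.01 for CIPK, 8.72 for CDPK and 3.05 for CML. All 8 CBL genes were tested, whereas 15 of 47 CML genes were not.

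**Figure D1:**
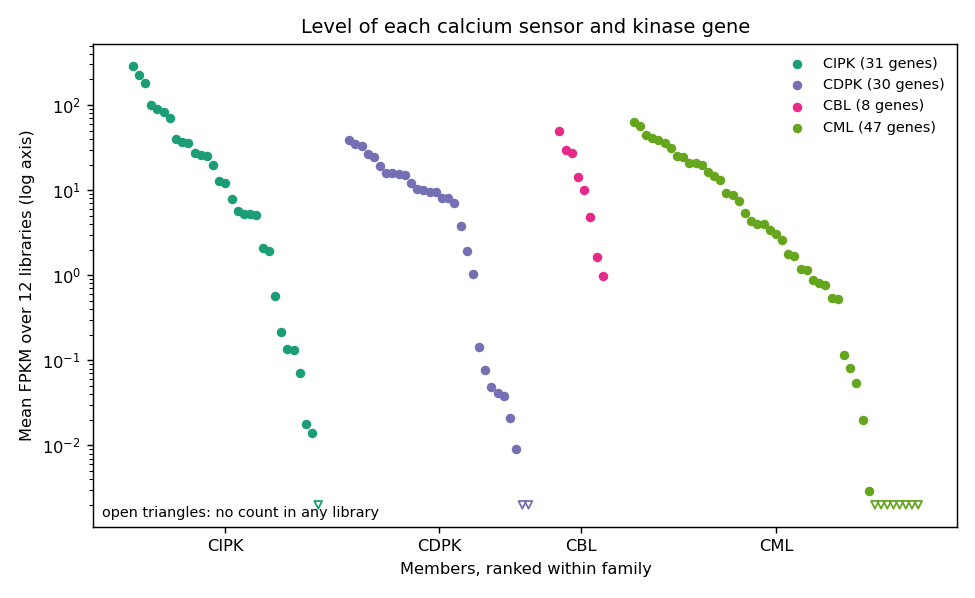
Mean deposited FPKM over the 12 libraries (log axis) of each of the 116 genes, ranked within its family; each point is a gene and open triangles are the 11 genes with no count. The highest CIPK gene stands at 288 FPKM and the highest CDPK gene at 39.3.

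The first comparison asks how SCS leaves changed under drought. By edgeR's quasi-likelihood test with Benjamini-Hochberg adjustment over all tested genes, 6 of the 85 members were called at an adjusted p below 0.05 (7.06%), 3 higher and 3 lower in drought. The background was 9.51% of all tested genes, so the share of members called lay below it; by direction it was 4.09% higher and 5.41% lower. The called genes were 2 kinases of the CIPK family and 1 CML sensor, which rose, and 1 CBL sensor and 2 CDPK genes, which fell. DESeq2 called 15 members, including these 6, against 19.5% of all tested genes. The libraries of drought and control did not overlap in 30 members (35.3%), against 33.8% of all tested genes. Marker sums differed between the groups as well, with overlapping ranges for the first list only. The chlorophyll-binding proteins of photosynthetic cells (14 genes) summed to 2539 to 13900 CPM in SCS drought and 7219 to 31470 in SCS control, and seed genes to 222.7 to 884.2 CPM in SCS drought and 18.08 to 53.12 in SCS control. The 5 guard cell genes summed to 25.48 to 29.11 CPM in SCS drought and 54.19 to 78.68 in SCS control. Of the 3 of them that were tested, only the potassium channel gene KAT1 (LOC8085586) was called, with a log2 fold change of -3.62. The median change of these 3 was -0.06, with 1 positive and 2 negative, so the sum does not show a fall shared by the list. The part of any of these cell types in the results was not tested.

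Among the sensors, CBL7 (LOC8081639, chromosome 4, 16905695 to 16908803) fell. It stood at 2.57, 2.48 and 2.52 CPM in the SCS drought libraries, against 16.4, 13.4 and 28 CPM in SCS control. The drought libraries were close to each other and all far below the lowest control. The log2 fold change was -2.93 (SE 0.34, adjusted p = 0.00321), and the call held in all 15 alternatives run. In JL the same gene stood at 16.8, 13.1 and 22.2 CPM in drought and 15.5, 17.6 and 21 CPM in control, and the groups overlapped. The other 7 CBL genes were not called in SCS. The most abundant of them, CBL2, had 40.4, 23.1 and 42 CPM in SCS drought and 88.6, 67.3 and 106 CPM in SCS control, with no overlap, but was not called (log2 fold change -1.31, adjusted p = 0.0812). CBL2 is known from Arabidopsis as a sensor at the vacuole membrane. CBL4, the name of the SOS3 sensor of Arabidopsis, was the least abundant CBL gene (LOC8061055). It stood at 1.74, 2.38 and 2.65 CPM in SCS drought and 0.713, 1.88 and 0.341 CPM in SCS control (log2 fold change 1.20, adjusted p = 0.352).

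CML16 (LOC8061350, chromosome 3, 7081881 to 7082899), a calmodulin-like sensor, was the only CML gene called in SCS. Its level was 61.3, 164 and 121 CPM in SCS drought, against 9.4, 16.2 and 7.96 CPM in SCS control, and the lowest drought library was above every control. The log2 fold change was 3.37 (SE 0.58, adjusted p = 0.00861), a call kept in all 15 alternatives. In JL it had 43.4, 21.2 and 16 CPM in drought and 35.3, 12.8 and 36.5 CPM in control, values that overlapped and lay between those of the SCS groups except for 1 drought and 1 control library at or below the highest SCS control. Of the 32 tested CML genes, 14 had a positive and 18 a negative change in SCS, with a median of -0.26 on the log2 scale, against -0.07 over all tested genes. That median turned to 0.62, with 20 positive, when SCS control 2 was left out. Without SCS drought 3 it was -0.51, with 8 positive and 24 negative, so the balance of the family depends on single libraries.

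Both CIPK genes that rose in SCS carry the name CIPK15, which in rice is known for linking low oxygen to sugar signalling in flooded seedlings. The first, LOC8067611 (chromosome 5, 1100635 to 1103512), had 178, 97.5 and 152 CPM in SCS drought, against 9.36, 11.5 and 13.4 CPM in SCS control. Its log2 fold change was 3.64 (SE 0.56, adjusted p = 0.0059) and held in all 15 alternatives. The second, LOC8074867 (chromosome 8, 2865529 to 2868783), had 34.9, 31.2 and 22.7 CPM in SCS drought and 4.81, 3.38 and 3.92 CPM in SCS control (log2 fold change 2.87, SE 0.61, adjusted p = 0.0182). In both genes every drought library was above every control. The call of LOC8074867 was lost without SCS control 1, 2 or 3 or SCS drought 1, with adjusted p up to 0.0761. JL did not show this separation. There LOC8067611 had 13.8, 58.8 and 17.7 CPM in JL drought and 29.7, 38.5 and 19.6 CPM in JL control. LOC8074867 had 1.56, 5.48 and 11.8 CPM in JL drought and 14, 9.09 and 6.68 CPM in JL control, and in both genes the groups overlapped.

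By count of genes, the CIPK family leaned upward in SCS drought. The summed levels of all its genes overlapped between the groups. They were 3027, 1695 and 2738 CPM in SCS drought and 2103, 2105 and 2716 CPM in SCS control. Of the 24 tested CIPK genes 17 had a positive and 7 a negative change, with a median of 0.36 on the log2 scale. In 10 of them all drought libraries were above all controls (41.7%) and in 2 all were below, while 14.6% and 19.2% of all tested genes separated in these directions. Leaving out any 1 SCS library kept 15 to 19 of the 24 positive and the median between 0.20 and 0.58. The largest fall in the family was of CIPK21 (LOC8063532), which in Arabidopsis is known from salt stress. It was at 98.9, 51.5 and 126 CPM in SCS drought and 493, 337 and 740.2 CPM in SCS control, without overlap, and its change of -2.50 (SE 0.73, adjusted p = 0.0562) missed the threshold. CIPK1, the most abundant member, had 375, 124 and 522 CPM in SCS drought and 481, 464 and 645 CPM in SCS control (log2 fold change -0.64, adjusted p = 0.442). CIPK24 (LOC8082266), the name of the SOS2 kinase of Arabidopsis, had 7.84, 5.98 and 11.7 CPM in SCS drought and 5.26, 10.3 and 11 CPM in SCS control, groups that overlapped (log2 fold change -0.06, adjusted p = 0.952).

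The CDPK family leaned the other way. Of 21 tested genes 15 had a negative and 6 a positive change in SCS drought, with a median of -0.77. In 8 genes (38.1%) all drought libraries were below all controls, and in 0 were they above, against 19.2% and 14.6% of all tested genes. Leaving out any 1 SCS library kept 13 to 17 of the 21 negative, and the median between -0.89 and -0.35. CDPK28 (LOC8076280, chromosome 8, 5378352 to 5382742), the most abundant CDPK gene, had 47.8, 31.4 and 42 CPM in SCS drought, against 97.5, 84.9 and 148 CPM in SCS control. It fell by 1.45 on the log2 scale (SE 0.26, adjusted p = 0.00978), and every drought library was below every control. This call was lost in 1 of 15 alternatives, the fit of the 6 SCS libraries alone (adjusted p = 0.0511).

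CDPK21 (LOC8060571, chromosome 7, 61862604 to 61865115) was a rarer transcript. It stood at 0.896, 0.709 and 1.54 CPM in SCS drought, against 7.31, 4.09 and 9.55 CPM in SCS control, again without overlap. The change was -2.72 (SE 0.58, adjusted p = 0.0181). That call was lost without SCS control 1 or 3 or SCS drought 1 or 2 (adjusted p up to 0.0787) and on log2(FPKM + 1). In JL, CDPK28 had 122, 111 and 139.98 CPM in drought and 152, 143 and 143 CPM in control, and CDPK21 had 5.47, 9.41 and 18.2 CPM in drought and 8.58, 21.8 and 16.5 CPM in control. All 6 JL libraries exceeded every SCS drought library in both genes.

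Several members came close to the threshold in SCS and were chosen here after their values were seen. CDPK1 (LOC8054903) had 21.9, 19.96 and 28.4 CPM in SCS drought and 40.2, 41.9 and 64.3 CPM in SCS control (log2 fold change -1.06, adjusted p = 0.0571). CDPK12 (LOC8056596) had 10.8, 9.83 and 10.2 CPM in SCS drought and 15.5, 38.9 and 39.9 CPM in SCS control (log2 fold change -1.61, adjusted p = 0.068). Both kinases were lower in every drought library than in any control. The other gene named CDPK1, LOC8064754, overlapped, at 29.7, 16.1 and 75.6 CPM in SCS drought and 71, 162 and 43.5 CPM in SCS control. Other abundant members were not called in any of the 5 comparisons. CBL10, known in Arabidopsis for salt tolerance of shoots, had 30.8, 27.7 and 25.8 CPM in SCS drought and 37, 30.3 and 57.4 CPM in SCS control, and CBL6 had 38.2, 36.8 and 30.5 CPM in SCS drought and 29.99, 28.1 and 36.6 CPM in SCS control. CDPK17 had 46.3, 56.7 and 30.2 CPM in SCS drought and 67.2, 47.2 and 94.3 CPM in SCS control. In these 3 genes the groups overlapped, as they did in CML10, at 49.8, 71.4 and 78.6 CPM in SCS drought and 60.9, 68.7 and 57.6 CPM in SCS control. CML27, the most abundant CML gene, was spread over a wider range, at 109, 14.3 and 158 CPM in SCS drought and 75.3, 107 and 39.7 CPM in SCS control.

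**Figure D2:**
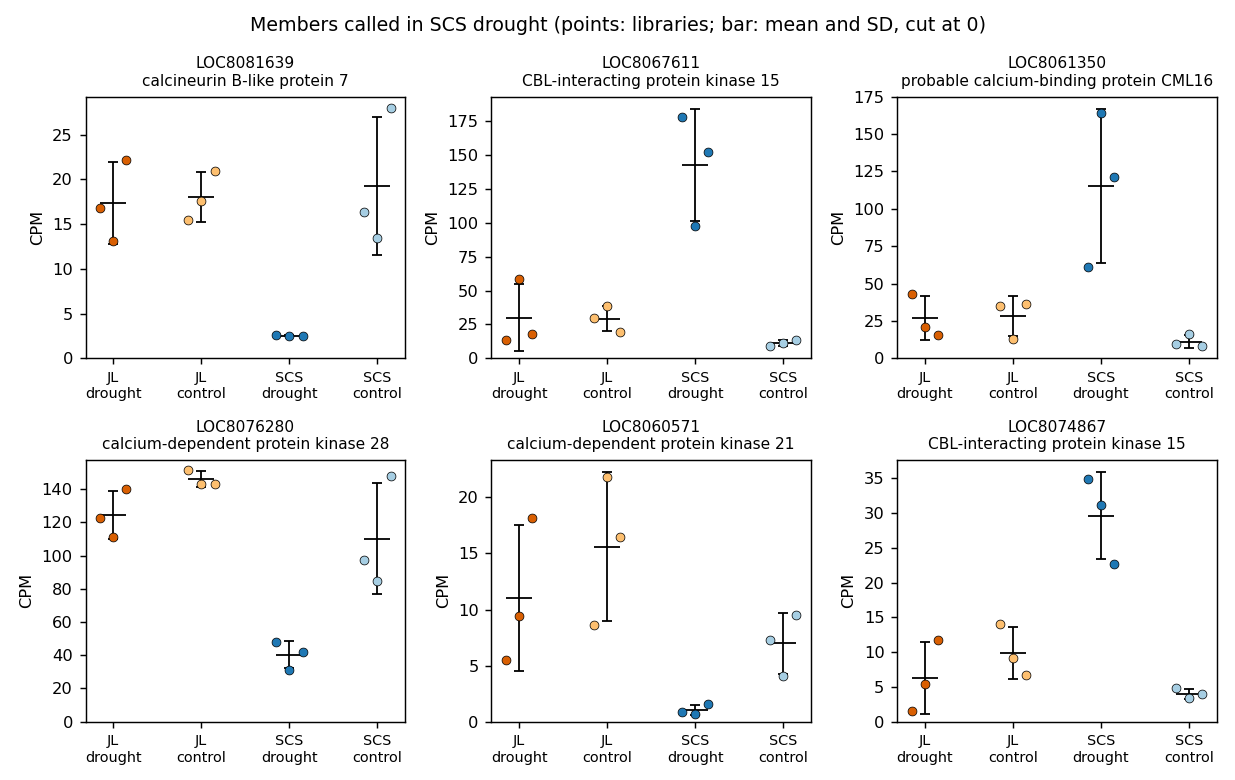
TMM-scaled CPM of the 6 members called in SCS drought, in the 12 libraries; points are libraries, the wide bar is the group mean of 3 libraries and the whiskers are 1 SD, ended at 0. CBL7, CDPK28 and CDPK21 are lowest, and both CIPK15 genes and CML16 highest, in SCS drought.

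The second comparison asks the same of JL. By edgeR, 0 of the 85 members were called for drought against control in JL, as were 0 of all 20873 tested genes (0%). At an unadjusted p below 0.05 there were 8 members, 7 higher and 1 lower in drought, which is 9.41% against 3.71% of all tested genes (2.77% higher and 0.939% lower). DESeq2 called 1 member, CIPK27, among 44 genes in all (0.211%). Of the 8 members, 6 were CIPK genes and all 6 were higher in drought. Non-overlapping groups were seen in 8 members (9.41%, 6 higher and 2 lower), against 5.19% of all tested genes (2.63% higher and 2.56% lower). The adjusted p of each of the 8 members with a low unadjusted p was 1 in edgeR.

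The lowest p belonged to the neighbouring pair CIPK27 and CIPK16. CIPK27 (LOC8060255, chromosome 2, 59341864 to 59343879) had 79.6, 482 and 34.3 CPM in JL drought, against 10.3, 3.34 and 1.82 CPM in JL control. All 3 drought libraries were above all controls, with JL drought 2 far above the others. The change was 5.27 on the log2 scale, SE 1.09, and 3.47 to 6.27 over fits that left out 1 library. The summed seed genes, at 80.34, 243.2 and 14.28 CPM in the 3 JL drought libraries and 44.53 to 119.2 in JL control, were also highest in JL drought 2, and their part in this value was not tested. CIPK16 (LOC8060254, chromosome 2, 59318779 to 59320794) had 64.8, 185 and 11.9 CPM in JL drought and 14.9, 5.84 and 5.67 CPM in JL control, with 1 drought library inside the control range (3.31 on the log2 scale, SE 0.93, 2.13 to 3.92 over fits without 1 library). In SCS both genes were also higher in drought than in control without overlap, and highest in drought library 2. There the summed seed genes were lowest in SCS drought 2, at 222.7 CPM, against 884.2 in SCS drought 1 and 250 in SCS drought 3. CIPK27 was at 49.6, 128 and 35.2 CPM in SCS drought and 20.3, 20.3 and 13.1 CPM in SCS control (log2 fold change 1.99, adjusted p = 0.21). For CIPK16 the values were 121, 169 and 29.5 CPM in SCS drought and 20.5, 22.2 and 11.5 CPM in SCS control (log2 fold change 2.56, adjusted p = 0.102). Neither was called in SCS.

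The other CIPK genes with a low unadjusted p in JL ranged from scarce to abundant. CIPK22 (LOC8061296) had 1.41, 11.7 and 1.83 CPM in JL drought and 1.1, 0.25 and 0.0675 CPM in JL control (3.39 on the log2 scale, SE 1.07). CIPK29 (LOC8078558) had 45.8, 30.5 and 1.46 CPM in JL drought and 1.7, 1.42 and 4.86 CPM in JL control, and its lowest drought library lay within the control range (3.27 on the log2 scale, SE 1.07). In SCS both genes were higher in every drought library than in any control, CIPK22 at 9.29, 7.14 and 3.13 CPM in drought and 2.9, 1.42 and 1.71 in control, and CIPK29 at 42.1, 91.1 and 18.7 CPM in drought and 8.56, 18.1 and 5.57 in control. CIPK2, separated from CIPK29 on chromosome 2 by 1 other gene, differed less but more evenly. It was at 822, 765 and 458 CPM in JL drought and 412, 411 and 249 CPM in JL control, without overlap (0.93 on the log2 scale, SE 0.32). CIPK6 (LOC8077845), a kinase known in Arabidopsis to act on a potassium channel of the phloem together with CBL4, had 229, 188 and 289.8 CPM in JL drought and 157, 162 and 101 CPM in JL control, also without overlap (0.75 on the log2 scale, SE 0.27). The 2 sensors of this group were CML29 (LOC8065114), at 35.3, 28.9 and 45 CPM in JL drought and 62.1, 52 and 69.3 CPM in JL control (-0.75 on the log2 scale, SE 0.30), and a calmodulin-like protein 4 gene (LOC8085958). CML29 was the only one of the 8 that was lower in drought. LOC8085958 had 78, 18.4 and 4.91 CPM in JL drought and 5.52, 6.92 and 8.03 CPM in JL control, so that 1 drought library was below all controls (2.31 on the log2 scale, SE 0.95). Over fits without 1 library its change ran from 0.77 to 2.82, and that of CIPK22 from 1.78 to 4.95.

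**Figure D3:**
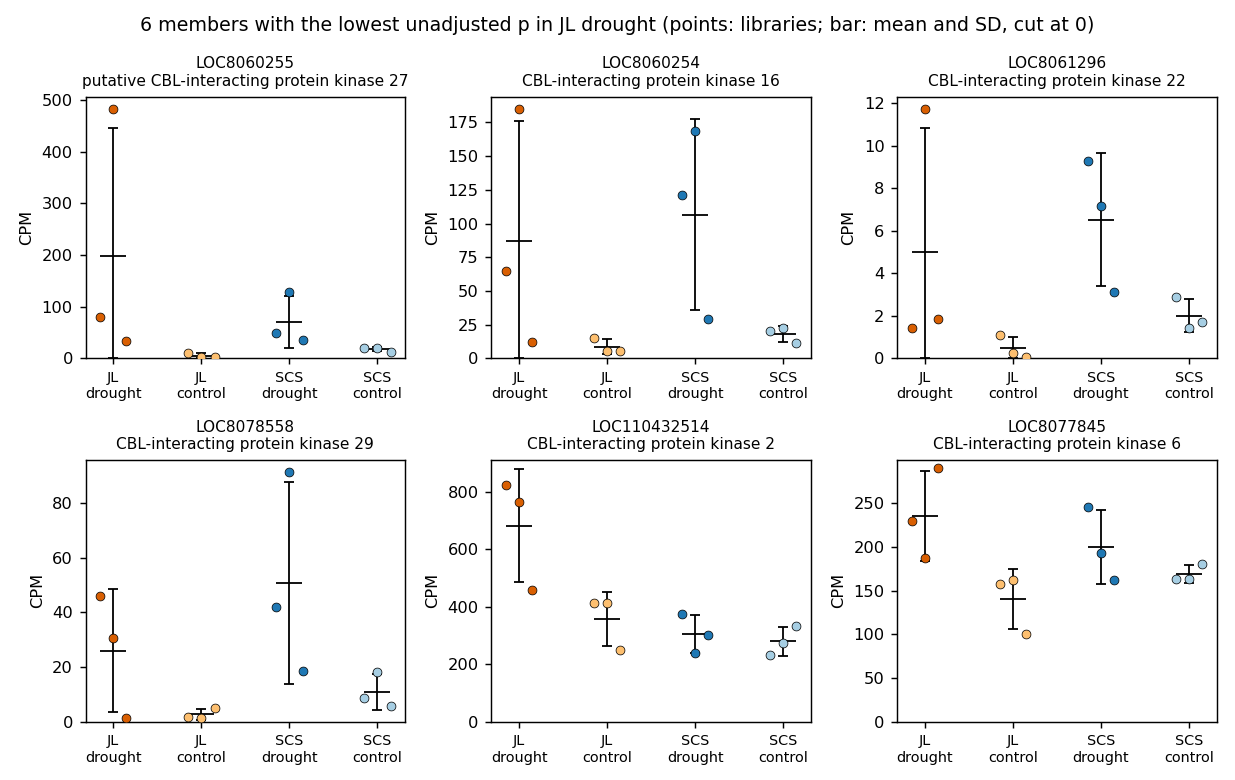
TMM-scaled CPM of the 6 members with the lowest unadjusted p in JL drought, in the 12 libraries; points are libraries, the wide bar is the group mean of 3 libraries and the whiskers are 1 SD, ended at 0. CIPK27 reaches 482 CPM in JL drought 2, and drought libraries of CIPK16, CIPK22 and CIPK29 spread widely in both cultivars.

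Over the families, 18 of 24 CIPK genes had a positive drought change in JL (median 0.29 on the log2 scale), and 16 of 21 CDPK (0.42), 21 of 32 CML (0.28) and 4 of 8 CBL genes (-0.01), against a median of 0.04 over all tested genes. Leaving out any 1 JL library left 16 to 19 of the 24 CIPK genes positive, whereas the CDPK and CML counts moved with JL drought 1. The CBL count was 4 to 6 of 8 over the same fits. Without JL drought 1, 12 of 21 CDPK genes were negative (-0.08), and 23 of 32 CML genes were negative (-0.58). The drought changes of the 2 cultivars share no library. They were both positive in 13 CIPK genes (54.2%, against 26.9% of all tested genes) and both negative in 2 (8.33%, against 26.4%). In 11 of 21 CDPK genes (52.4%, against 26.5% of all tested genes) the change was positive in JL and negative in SCS. These shares are descriptions of signs and carry no test, and the CDPK signs in JL moved with JL drought 1 as given above. Neither SOS name was called in JL. CIPK24 had 20.5, 6.59 and 15.9 CPM in JL drought and 11.5, 14.1 and 7.15 CPM in JL control, and CBL4 had 2.58, 0.599 and 0.659 CPM in JL drought and 1.53, 0.751 and 1.48 CPM in JL control, overlapping in both genes.

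**Figure D4:**
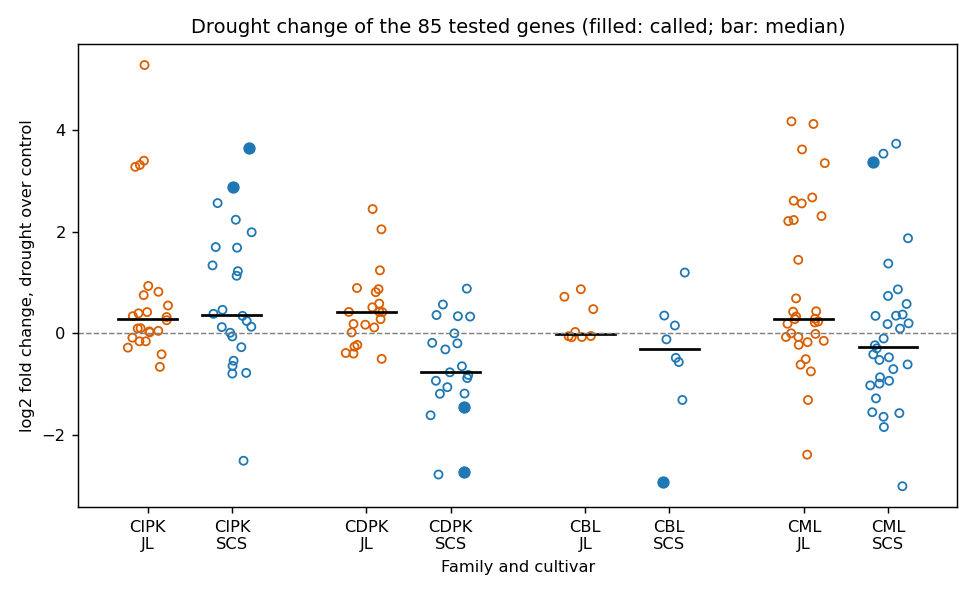
Log2 fold change of drought over control for each of the 85 tested genes, by family and cultivar, JL left of SCS; each point is a gene, filled where called, and the bar is the family median. Points of the CIPK family lie mostly above 0 in both cultivars, and CDPK points in SCS mostly below 0.

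The third comparison tests the difference of the drought changes, that in JL minus that in SCS. It was called in 1 of 85 members (1.18%), against 0.513% of all tested genes. That gene was CBL7, with a drought change of -0.05 in JL and -2.93 in SCS, and a difference of 2.87 (SE 0.46, adjusted p = 0.0314). The call was lost in 10 of 12 fits that left out 1 library, the exceptions being SCS drought 3 and JL drought 2, with adjusted p of 0.0262 to 0.0996 over these fits. This comparison uses the same SCS libraries as the first, and the members with the next lowest p were mostly those called there. The first CIPK15 gene (LOC8067611) differed by -3.60 (SE 0.74, adjusted p = 0.064), CML16 by -3.44 (SE 0.76, adjusted p = 0.079) and the second CIPK15 gene (LOC8074867) by -3.53 (SE 0.83, adjusted p = 0.0921). None of these 3 passed, and neither did CDPK28 (difference 1.22 on the log2 scale, adjusted p = 0.148), CDPK21 (difference 2.22 on the log2 scale, adjusted p = 0.206), CDPK1 (LOC8054903; difference 1.24 on the log2 scale, adjusted p = 0.21) or CDPK25 (LOC8071421; difference 5.22 on the log2 scale, adjusted p = 0.249). Without JL drought 2, the first CIPK15 gene was called along with CBL7. At an unadjusted p below 0.05 were 14 members (16.5%, against 15.4% of all tested genes), 9 of them with the more positive change in JL (9.6% of all tested genes), among which were 6 of the 21 CDPK genes.

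In the fourth comparison, JL and SCS were compared under a normal water supply. By edgeR 0 of 85 members were called, against 0.024% of all tested genes (5 genes), while 8 members had an unadjusted p below 0.05 (9.41%, against 14.4% of all tested genes). Of these 8, 6 were higher and 2 lower in JL, against 6.87% and 7.55% of all tested genes. The cultivars did not overlap in 16 members (18.8%, against 27.6%), and DESeq2 called 2 members, CML29 and CDPK3 (against 3.35% of all tested genes). The lowest p was that of CML29. It stood at 62.1, 52 and 69.3 CPM in JL control and 22.5, 16.1 and 31 CPM in SCS control, without overlap (log2 fold change 1.40, SE 0.31, adjusted p = 0.284). CDPK3 (LOC8085430) went the other way, at 19, 14.8 and 12.5 CPM in JL control and 28.1, 30.6 and 25.1 CPM in SCS control (log2 fold change -0.85, SE 0.24, adjusted p = 0.293). CDPK25 (LOC8071421) was near the limit of detection in JL control, at 0.0849, 0 and 0.945 CPM, against 7.4, 5.13 and 4.43 CPM in SCS control (log2 fold change -3.97, adjusted p = 0.301). That value ran from -6.84, without JL control 3, to -3.42 over fits without 1 library, and was -1.65 on log2(FPKM + 1). The other 5 were both CIPK15 genes, CML16, CIPK8 (LOC8074979) and CIPK26 (LOC8076093), all higher in JL control with log2 fold changes of 0.54 to 1.36. CIPK8 is known in Arabidopsis for the response to nitrate.

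The last comparison set JL drought against SCS drought, where 13 of 85 members were called (15.3%), against 18.8% of all tested genes. In JL drought 9 were higher and 4 lower, against 11.2% and 7.55% of all tested genes. The groups did not overlap in 24 members (28.2%, against 32.8%), all 13 called ones included. The SCS drought libraries are shared with the first comparison. The 6 genes called there were also called here, each with the opposite sign. For the sensor CBL7 the log2 fold change was 2.78 (SE 0.34, adjusted p = 0.00159), for CDPK28 1.62 (SE 0.26, adjusted p = 0.00349) and for CDPK21 3.38 (SE 0.59, adjusted p = 0.005), and these 3 calls held in all 15 alternatives. CDPK1 (LOC8054903, chromosome 3, 56120682 to 56125429) had 77.7, 118 and 56.3 CPM in JL drought, against 21.9, 19.96 and 28.4 CPM in SCS drought. All JL libraries were above all SCS libraries. The log2 fold change was 1.84 (SE 0.32, adjusted p = 0.00467), a call lost only in the fit of the 6 drought libraries alone (adjusted p = 0.0509). The other CDPK1 gene, LOC8064754, was not called. Its groups overlapped, at 115, 27.6 and 26 CPM in JL drought and 29.7, 16.1 and 75.6 CPM in SCS drought.

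Further members higher in JL drought were 4 CIPK genes and CML29. CIPK21 had 256, 164 and 1110.4 CPM in JL drought and 98.9, 51.5 and 126 CPM in SCS drought (log2 fold change 2.47, SE 0.73, adjusted p = 0.0401). CIPK2 had 822, 765 and 458 CPM in JL drought and 373, 240.4 and 303 CPM in SCS drought (log2 fold change 1.16, SE 0.32, adjusted p = 0.0321). In both, every JL library was above every SCS one. The change of CIPK21 ran from 1.18, without JL drought 3, to 2.89 over fits that left out 1 library, and its call was lost in 4 of those 6 fits and with limma on both FPKM scales. CIPK31 (LOC8084962) had 12.3, 8.21 and 11 CPM in JL drought and 1.85, 4.66 and 1.1 CPM in SCS drought (log2 fold change 2.05, SE 0.54, adjusted p = 0.0271). A second, more abundant gene named CIPK31, LOC8055912, was not called. Its groups overlapped, at 249, 157 and 77.4 CPM in JL drought and 201, 76.3 and 290 CPM in SCS drought. CIPK32 (LOC110435572) had 107, 120.3 and 109 CPM in JL drought and 62.3, 28.3 and 71.6 CPM in SCS drought (log2 fold change 1.05, SE 0.30, adjusted p = 0.0366). CML29 had 35.3, 28.9 and 45 CPM in JL drought and 14.4, 19.6 and 11.6 CPM in SCS drought (log2 fold change 1.26, SE 0.31, adjusted p = 0.0192). Its JL libraries were above its SCS libraries in control as well, where it was not called by edgeR.

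Lower in JL drought were LOC8067611 (log2 fold change -2.25, SE 0.53, adjusted p = 0.0166) and LOC8074867 (log2 fold change -2.24, SE 0.60, adjusted p = 0.0273), both CIPK15, with CML16 (log2 fold change -2.10, SE 0.55, adjusted p = 0.0248) and CML15. CML15 (LOC8076822) had 14.7, 3.85 and 1.76 CPM in JL drought and 63.8, 130.1 and 27.7 CPM in SCS drought (log2 fold change -3.45, SE 1.06, adjusted p = 0.0459). In SCS control it was at 4.41, 13.4 and 1.25 CPM, all below SCS drought, though not called there (log2 fold change 3.53, adjusted p = 0.0621). Apart from CBL7, CDPK28, CDPK21 and CDPK1 (LOC8054903), each called gene of this comparison lost its call when 1 of 2 or more libraries was left out. Over these fits the change of LOC8067611 ran from -3.18 to -1.90, that of LOC8074867 from -3.07 to -1.78, that of CIPK31 (LOC8084962) from 1.69 to 2.83 and that of CML15 from -4.72 to -2.76. The count of called members was 5 without SCS drought 1 and 6 without JL drought 3. The share of all tested genes called in these 2 fits is not given here. The lower counts are therefore not a result about the members in particular.

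The CML genes varied widely between libraries of the same group. The median SD of log2 CPM within a group was 1.25 in JL drought, 0.88 in JL control, 1.00 in SCS drought and 0.84 in SCS control for the 32 CML genes, against 0.66, 0.43, 0.58 and 0.41 for all tested genes in the same order of groups. For the 24 CIPK genes these values were 0.83, 0.49, 0.57 and 0.27. The CML genes also peaked together. Of the 32 genes, 25 were highest in JL drought 1 within that group (78.1%, against 33.5% of all tested genes) and 23 in SCS control 2 (71.9%, against 37%). The share was 62.5% in SCS drought 3 (20 genes, against 36.5%) and 59.4% in JL control 3 (19 genes, against 39.5%).

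Several examples of this pattern, chosen after their values were seen, show the size of the spread. A CML45 gene (LOC8060240) had 73, 1.97 and 0.805 CPM in JL drought, 4.16, 1.75 and 6.48 in JL control, 5.99, 0.507 and 18.3 in SCS drought and 7, 49.9 and 3.3 in SCS control. CML36 (LOC8069287) had 34.7, 0.342 and 0 CPM in JL drought, 1.27, 0.334 and 0.405 in JL control, 0.224, 0.405 and 5.78 in SCS drought and 1.83, 16.8 and 0.284 in SCS control. In both genes JL drought 1, SCS drought 3 and SCS control 2 were the high libraries of their groups. A kinase with the same order was CDPK13, the third most abundant CDPK gene. CDPK13 (LOC8060443) had 383, 25.7 and 14.9 CPM in JL drought, 22.6, 18.9 and 61.1 in JL control, 32.6, 44.6 and 71.7 in SCS drought and 64, 164 and 34.6 in SCS control. Of the 21 CDPK genes 13 were highest in JL drought 1 (61.9%, against 33.5% of all tested genes), 12 in SCS drought 3 (57.1%, against 36.5%) and 11 in SCS control 2 (52.4%, against 37%). In JL control 3 it was 7 CDPK genes (33.3%, against 39.5%), so that library did not stand out for them. The 4 libraries in which most CML genes peaked had the lowest mesophyll marker sum of their group. It was 94090 CPM in JL drought 1, 90680 in JL control 3, 4299 in SCS drought 3 and 31770 in SCS control 2. The summed bundle sheath genes (5 genes) were lowest in the same 4 libraries, at 13800 CPM in JL drought 1, 12990 in JL control 3, 2630 in SCS drought 3 and 4341 in SCS control 2, against 14280 to 22600, 16580 to 21080, 3669 to 4468 and 5266 to 10640 CPM in the other libraries of these groups. Chlorophyll-binding genes were likewise lowest in JL control 3, SCS drought 3 and SCS control 2, but not in JL drought 1 (77010 CPM, between 44740 and 123100 in the other 2). The part of these cell types in the spread was not tested.

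**Figure D5:**
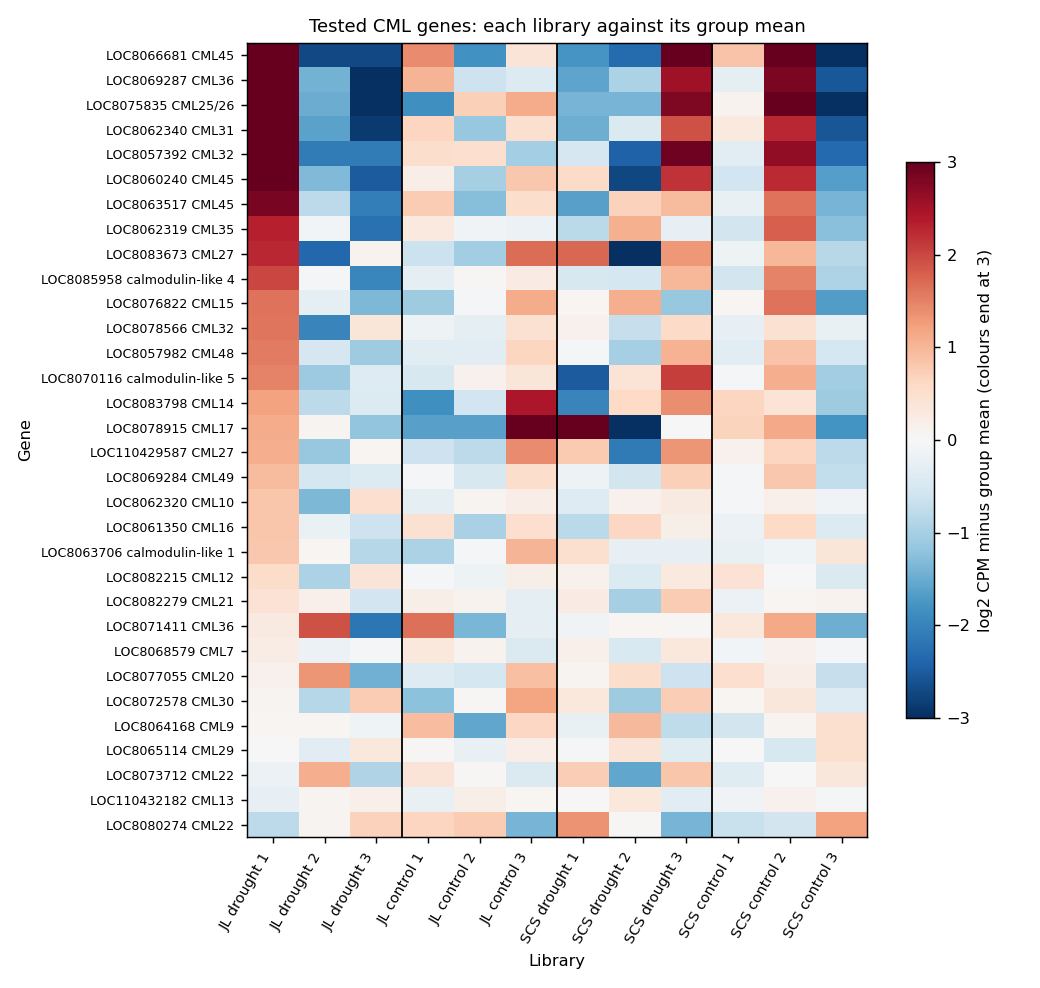
Log2 CPM of each of the 32 tested CML genes minus the mean of its group, by library, with colours ending at 3 in both directions; groups run from JL drought to SCS control. Red columns mark JL drought 1, JL control 3, SCS drought 3 and SCS control 2, where 25, 19, 20 and 23 of the 32 genes were highest in their group.

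A few scarce CML genes had most or all of their counts in 1 library. CML18 (LOC8066629), too rare to be tested, had 167 of its 178 counts (93.8%) in JL drought 2. CML17 (LOC8078915), which was tested, had 71.6% of its counts in SCS drought 1, and all 19 counts of CML50 (LOC8068144) came from the same library. These genes were chosen after their values were seen.

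Upstream and downstream of the sensors, the other genes of the pathway were found by their product descriptions. Of 37 tested calcium entry channels 4 rose and 4 fell in SCS drought (21.6%, against 9.51% of all tested genes). LOC8075448, a calcium-permeable stress-gated channel of the type known in Arabidopsis to open when the cell shrinks, had 146, 135 and 88.9 CPM in SCS drought, against 23.8, 33.3 and 31.6 CPM in SCS control, and rose (log2 fold change 2.06, SE 0.29, adjusted p = 0.00465). A pair of glutamate receptor 3.4 genes, cation channels known to carry calcium in wound and stress signals, fell. LOC8054496 had 3.92, 3.55 and 1.99 CPM in SCS drought and 42.3, 29.1 and 60.8 CPM in SCS control (log2 fold change -3.81, SE 0.55, adjusted p = 0.00474), and LOC8083292 had 14.6, 12.9 and 16.9 CPM in SCS drought and 52.1, 57.7 and 96.2 CPM in SCS control (log2 fold change -2.21, SE 0.34, adjusted p = 0.00554). Of 32 pumps and exchangers, which clear calcium from the cytosol, 2 rose and 2 fell (12.5%, against 9.51% of all tested genes). The plasma membrane calcium ATPase 5 gene LOC8072298 had 1092, 1071 and 652 CPM in SCS drought, against 49.4, 63.2 and 49.5 CPM in SCS control (log2 fold change 4.12, SE 0.84, adjusted p = 0.0158). The cation/calcium exchanger 1 gene LOC8071496 rose as well, with 40.8, 42.3 and 33.1 CPM in SCS drought and 0.223, 1.33 and 0.739 CPM in SCS control (log2 fold change 5.64, SE 1.07, adjusted p = 0.012), while calcium ATPase 9 (LOC8070361) fell (log2 fold change -1.19, SE 0.25, adjusted p = 0.0186).

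The other lists are shorter or had few calls. Of the annexins 22.2% were called and of the calmodulin genes 20%, against 9.51% of all tested genes. The share was 16.7% of the CDPK-related and PEP carboxylase kinases and 8.33% of the other calcium-binding proteins. Each of these shares rests on 1 or 2 called genes. Of 9 annexins, which bind membranes in the presence of calcium, annexin D5 (LOC8075631) fell (log2 fold change -3.52, SE 0.47, adjusted p = 0.00411) and annexin D7 (LOC8066221) rose (log2 fold change 4.05, SE 1.00, adjusted p = 0.0323). Of 5 calmodulin genes 1 rose, LOC8083705, with 351, 232 and 260.03 CPM in SCS drought against 116, 116 and 81.3 CPM in SCS control (log2 fold change 1.43, SE 0.33, adjusted p = 0.0253). Among 6 genes of CDPK-related and PEP carboxylase kinases, PEP carboxylase kinase 2 (LOC8066165), which phosphorylates the entry enzyme of C4 photosynthesis, rose (log2 fold change 2.69, SE 0.62, adjusted p = 0.0254). Of 50 calmodulin-binding proteins 1 fell (2%), IQ-DOMAIN 14 (LOC8082643; log2 fold change -3.76, SE 0.86, adjusted p = 0.0245). Of 12 other calcium-binding proteins 1 fell, LOC8059661 (log2 fold change -2.28, SE 0.46, adjusted p = 0.0152).

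Of 40 genes of the kind CDPK and CIPK proteins act on, namely potassium channels and transporters, S-type anion channels, sodium/hydrogen exchangers 7 and 8 and NADPH oxidases, 3 rose and 3 fell (15%). The S-type anion channel SLAH2 (LOC8066616), of a family known in Arabidopsis for letting anions out of guard cells, had 60.6, 14.3 and 25.8 CPM in SCS drought and 0.223, 1.04 and 0.284 CPM in SCS control (log2 fold change 5.99, SE 0.92, adjusted p = 0.00604). KAT1 (LOC8085586), the potassium uptake channel of guard cells, had 3.64, 0.811 and 5.34 CPM in SCS drought and 36.9, 29.6 and 53.9 CPM in SCS control (log2 fold change -3.62, SE 0.66, adjusted p = 0.0106), and it is also on the guard cell marker list. Potassium transporter 22 (LOC8081576) fell too (log2 fold change -3.79, SE 0.53, adjusted p = 0.00449). In JL drought, in the difference of the drought changes and between the cultivars in control, 0 genes of any of these 8 lists were called. In the same order, 0%, 0.513% and 0.024% of all tested genes were called, so these counts of 0 lay close to the background. Between JL drought and SCS drought, 7 of the 37 channels were higher and 3 lower in JL (27%, against 18.8% of all tested genes), and of the 40 CDPK and CIPK targets 5 were higher and 2 lower (17.5%). Both glutamate receptor 3.4 genes were higher in JL drought, LOC8054496 at 16.8, 22.1 and 63.3 CPM and LOC8083292 at 161, 85.6 and 133 CPM in the 3 JL libraries. Of the genes that had fallen in SCS drought, calcium ATPase 9 (LOC8070361; log2 fold change 1.60), annexin D5 (LOC8075631; 3.45), IQ-DOMAIN 14 (LOC8082643; 4.13), potassium transporter 22 (LOC8081576; 3.79), KAT1 (LOC8085586; 3.27) and LOC8059661 (2.55) were called higher in JL drought. Of those that had risen, annexin D7 (LOC8066221; -4.99), calmodulin (LOC8083705; -1.54) and PEP carboxylase kinase 2 (LOC8066165; -2.25) were called lower. These signs are opposite to those of the SCS comparison, with which the SCS drought libraries are shared. Genes named here alone were an endoplasmic reticulum calcium ATPase 3, a pump that fills that store (LOC8060530; -1.90), IQM3, a calmodulin-binding protein (LOC8070629; 1.43), and a calcium-binding protein 5-like gene (LOC110432530; 1.96).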

How the data were processed

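Leaf RNA of 12 samples was sequenced from strand-specific libraries, per the labels' protocols. The authors deposited a table of read counts and of FPKM per gene. HISAT2 2.0.4, STAR and StringTie 1.3.3b are named in the submitters' processing notes, which give neither their roles nor their order. Which program counted reads, its use of strand and the reference build are not stated there. The deposited FPKM values equal the count divided by gene length and by a constant per library, 0.758 to 1.41 of its total. Coordinates are those of the deposited table, and for all 116 genes they match Sorghum_bicolor_NCBIv3. Library totals were 15039990 to 18356604 counts.

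From the counts, edgeR 4.0.16 (R 4.3.3) was run with filterByExpr, TMM scaling and 1 mean per group over all 12 libraries, with the quasi-likelihood test and Benjamini-Hochberg adjustment over 20873 genes; genes below 0.05 were called. The 5 comparisons were drought against control in each cultivar, the difference of these changes, and JL against SCS in each condition. Each SE was derived from the test, as the absolute log2 fold change divided by the square root of its quasi-likelihood F statistic. Alternatives were RLE and upper-quartile scaling, DESeq2 1.42.0, other filters, the compared groups alone, a replicate block, each library left out, and limma 3.58.1 on log2(FPKM + 1) or log2(FPKM + 0.1) of the deposited values. The fit was also run on simulated counts, drawn from 1 mean per gene apart from genes given a set change. Those counts hold no library that departs from its group, so they do not show how stable the calls are here. The biological coefficient of variation was 63.3%, which limits precision.

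Members and lists were chosen with earlier results of these data known. Named were all called members, the 8 with the lowest unadjusted p where fewer than 5 were called, the 3 most abundant per family, CIPK24 and CBL4, and called pathway genes (up to 3 per list in SCS drought, up to 2 elsewhere).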

Additional observations from a re-analysis of the deposited data

Results flagged for a closer look

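The drought change of CBL7 (LOC8081639), a calcium sensor that acts through CIPK kinases, differed between the cultivars by a test of the difference itself. The change in JL minus that in SCS was 2.87 on the log2 scale (SE 0.46, adjusted p = 0.0314 by edgeR's quasi-likelihood test with Benjamini-Hochberg adjustment). All 3 SCS drought libraries were below all 3 SCS controls, while the JL groups overlapped. The adjusted p was 0.0508 to 0.0996 in the 10 fits without 1 library that lost the call. The numerical rule for a library far from the rest of its group needs at least 4 libraries and was not applied.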

How the results depend on the processing

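The count of called members moved by more than 1.5 times in these cases. DESeq2 called 15 members in SCS drought, 1 in JL drought, 5 for the difference of the drought changes, 2 for JL against SCS in control and 20 for JL against SCS in drought. For the difference, limma gave 4 on log2(FPKM + 1) and 2 on log2(FPKM + 0.1), and leaving out 1 library gave 0 to 2. For JL against SCS in drought, the 6 drought libraries alone gave 3 and leaving out 1 library 5 to 12. Over all genes, DESeq2 called 4065 against 1984 in SCS drought, 44 against 0 in JL drought, 1357 against 107 for the difference, 700 against 5 in control and 6055 against 3916 in drought. The causes were not tested. Same-numbered libraries did not deviate together (correlations -0.491 to 0.383), so the numbers do not pair the samples. With a replicate block, 0 members were called for the difference and 7 for JL against SCS in drought. Counts over all genes are given here for DESeq2 only. The member counts of the other alternatives therefore do not show a change particular to the members. CIPK24 changed sign in SCS drought with the SCS libraries alone (0.029) and over fits without 1 library (-0.361 to 0.162). CBL4 changed sign in JL drought under upper-quartile scaling (-0.092), the block (-0.107), log2(FPKM + 1) (-0.052), log2(FPKM + 0.1) (-0.203) and fits without 1 library (-0.988 to 0.363). Upper-quartile scaling moved the median of all genes by -0.129 in JL against SCS in drought. Of the other values of the 47 named results, 649 kept direction and call, 74 lost the call and 12 gained it. Only results called in the main fit could lose a call. The 649 include values of results that were not called to begin with, as in JL drought and in JL against SCS in control. They therefore do not measure how stable the calls are. The difference could not be fitted on fewer than all 4 groups. With 3 libraries a group, small changes of scarce members were not detectable.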
